A study of Mus musculus with 20 samples.

Results

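Neurexins and the postsynaptic proteins that bind them were followed by 9 genes in the basolateral amygdala (BLA): the neurexins Nrxn2 and Nrxn3, the neuroligins Nlgn1, Nlgn2 and Nlgn3, and the leucine-rich repeat transmembrane genes Lrrtm1, Lrrtm2, Lrrtm3 and Lrrtm4. The genes were chosen by symbol from the 31053 features of the count matrices, and all 9 were found. Single-cell libraries came from the BLA of 10 mice, 1 library per mouse, and each class of cells was summed per mouse so that mice, not cells, were the replicates. The other 10 of the 20 samples, from the prefrontal cortex, were not analysed here.

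All mice were wild-type C57BL/6 males aged 13 weeks. Mice labelled CORT drank corticosterone at 35 µg/ml for 6 weeks, and mice labelled BCD drank the vehicle, 2-hydroxypropyl cyclodextrin, although the methods for the single-cell part speak of regular water for the controls. Mice labelled Ket received 1 intraperitoneal injection of ketamine at 10 mg/kg, an NMDA receptor antagonist, and mice labelled Sal received saline, 24 h before the tissue was taken. Mice 9901 and 9947 made up the group BCD-Sal, mice 9946, 9949 and 9986 the group BCD-Ket, mice 9969 and 9970 the group CORT-Sal, and mice 9967, 9968 and 9971 the group CORT-Ket. The protocol given for every sample names the prefrontal cortex only, so the dissection of the BLA is known from the tissue label alone. Corticosterone in the drinking water is a pharmacological model of chronic stress.

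Neurexins are presynaptic adhesion proteins that organise transmitter release, and they meet different partners across the synaptic cleft. Neuroligins bind neurexins from the postsynaptic side, Nlgn1 mainly at excitatory synapses, Nlgn2 mainly at inhibitory synapses and Nlgn3 at both. Lrrtm proteins are postsynaptic too and are known from glutamatergic synapses, where they help to hold AMPA receptors. Oligodendrocyte precursor cells (OPCs), the dividing glia that give rise to myelinating oligodendrocytes, receive synapses from neurons, and astrocytes also carry neuroligins. The study asked how corticosterone and ketamine change signalling between cells. From the expression of ligands and receptors it predicted that the neurexin pathway of the BLA was among those that fell most with corticosterone. The pathway was also predicted to be among those that rose most when ketamine followed. The matching contrasts, those with CORT-Sal, could be tested here only in endothelial cells, so the treatment results do not address that prediction in neurons.

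Promoter sequence was available in the RefSeq table for 6 of the 9 genes (build GRCm38.p6, 250 bases before to 50 bases after an annotated start, 5′ to 3′ on the strand of the gene). Windows of 4 genes are printed because Nrxn3, Lrrtm3 and Lrrtm4 had like patterns across cell classes, whereas Nlgn2 was found more widely. Capitals mark the E-box CANNTG, the motif of neuronal and other basic helix-loop-helix factors, which reads the same on both strands.
Lrrtm3, chr10:64090206-64090505, minus strand: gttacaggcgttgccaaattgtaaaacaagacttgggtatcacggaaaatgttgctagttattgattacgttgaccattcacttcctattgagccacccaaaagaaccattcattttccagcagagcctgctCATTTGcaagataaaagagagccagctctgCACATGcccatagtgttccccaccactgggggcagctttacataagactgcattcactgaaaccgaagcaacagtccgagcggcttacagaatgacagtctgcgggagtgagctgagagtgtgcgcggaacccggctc
Lrrtm4, chr6:80019393-80019692, plus strand: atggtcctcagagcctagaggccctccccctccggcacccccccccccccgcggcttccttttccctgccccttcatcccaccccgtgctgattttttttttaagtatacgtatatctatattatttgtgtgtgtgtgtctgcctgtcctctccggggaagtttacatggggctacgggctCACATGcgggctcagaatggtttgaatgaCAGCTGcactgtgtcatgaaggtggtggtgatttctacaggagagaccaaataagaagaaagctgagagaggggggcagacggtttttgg
Nrxn3, chr12:89812233-89812532, plus strand: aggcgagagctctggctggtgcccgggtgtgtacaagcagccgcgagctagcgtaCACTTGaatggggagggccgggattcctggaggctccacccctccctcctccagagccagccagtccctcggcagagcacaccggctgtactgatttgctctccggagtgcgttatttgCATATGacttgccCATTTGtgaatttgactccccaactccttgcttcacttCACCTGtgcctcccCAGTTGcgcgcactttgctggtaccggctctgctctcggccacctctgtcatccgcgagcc
Nlgn2, chr11:69837735-69838034, minus strand: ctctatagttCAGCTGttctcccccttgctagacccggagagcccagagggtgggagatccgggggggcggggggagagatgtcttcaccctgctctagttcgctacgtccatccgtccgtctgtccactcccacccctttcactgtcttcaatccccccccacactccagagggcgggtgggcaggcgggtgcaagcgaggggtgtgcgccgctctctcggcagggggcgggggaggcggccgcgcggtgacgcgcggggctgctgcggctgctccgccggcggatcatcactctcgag
The windows held 2, 2, 5 and 1 E-boxes in that order, and 72.3% of 32851 windows of 300 bases held at least 1. The Nlgn2 window was 68.7% G and C and held 3 copies of the GC box GGGCGG, found in 35.7% of windows, and 1 copy of the glucocorticoid half-site AGAACA, found in 19.0%, both searched on both strands. The half-site shares 2 bases with the E-box there. It was not in the other 3 windows shown. Nrxn3 has 3 windows in the table and Lrrtm4 has 2. The Nrxn3 window printed is the one with the most E-boxes. The Nrxn3 windows not printed held 0 and 1, and the one at chr12:88794254-88794553 held 1 half-site. The Lrrtm4 window not printed held 4 E-boxes. The 3′ counts cannot tell transcripts of different starts apart.

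In the older annotation of build NCBIM37 (mm9), Nrxn3 spans chr12:89961320-91573375 and Nrxn2 chr19:6418731-6544169, both on the plus strand. Nlgn1 lies at chr3:25330733-26032656 and Nlgn2 at chr11:69636624-69651286, both on the minus strand, and Nlgn3 lies on the plus strand at chrX:98491178-98521302. Lrrtm4 spans chr6:79968871-80760137 on the plus strand. The remaining Lrrtm genes lie within the span of catenin genes on the opposite strand: Lrrtm1 (chr6:77192683-77207785) within Ctnna2, Lrrtm2 (chr18:35368665-35374678) within Ctnna1 and Lrrtm3 (chr10:63391220-63553025) within Ctnna3.

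The libraries held 626 to 4604 barcodes and 811628 to 7281768 unique molecular identifiers (UMIs, one per captured RNA molecule). Barcodes with at most 12.5% mitochondrial UMIs and at least 200 genes were kept, 8305 of 28722. In 9 libraries 16.8 to 31.0% of barcodes were kept. Mouse 9970 (CORT-Sal) stood apart, with 97.1% kept and a median mitochondrial share of 3.22% against 33.2 to 57.9% elsewhere. A cluster of 2353 barcodes had 99.7% of them from that library. It was left unnamed, whatever its markers, by a rule for clusters with over 90% of barcodes from 1 library. Mouse 9970 then gave 8 excitatory neurons and 11 endothelial cells. CORT-Sal therefore had 1 mouse in neurons and glia, and contrasts with it could be tested only in endothelial cells. No pair of libraries shared more than 10 kept barcodes. The named classes, from markers such as Slc17a7, Gad2, Aqp4, Pdgfra, Mog, Cx3cr1, Cldn5 and Vtn, were excitatory neurons (1024 cells), inhibitory neurons (293), astrocytes (1360), OPCs (404), oligodendrocytes (379), microglia (863), endothelial cells (1094) and mural cells (270). The 9 genes and 39 partner genes took no part in the clustering. Levels are given as CPM, the UMIs of a gene scaled to the total UMIs of the class in a mouse, for mice with at least 10 cells of the class, given as mean ± SD over mice. Since 3′ capture differs between genes, levels were compared between classes and not between genes.

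**Figure D1:**
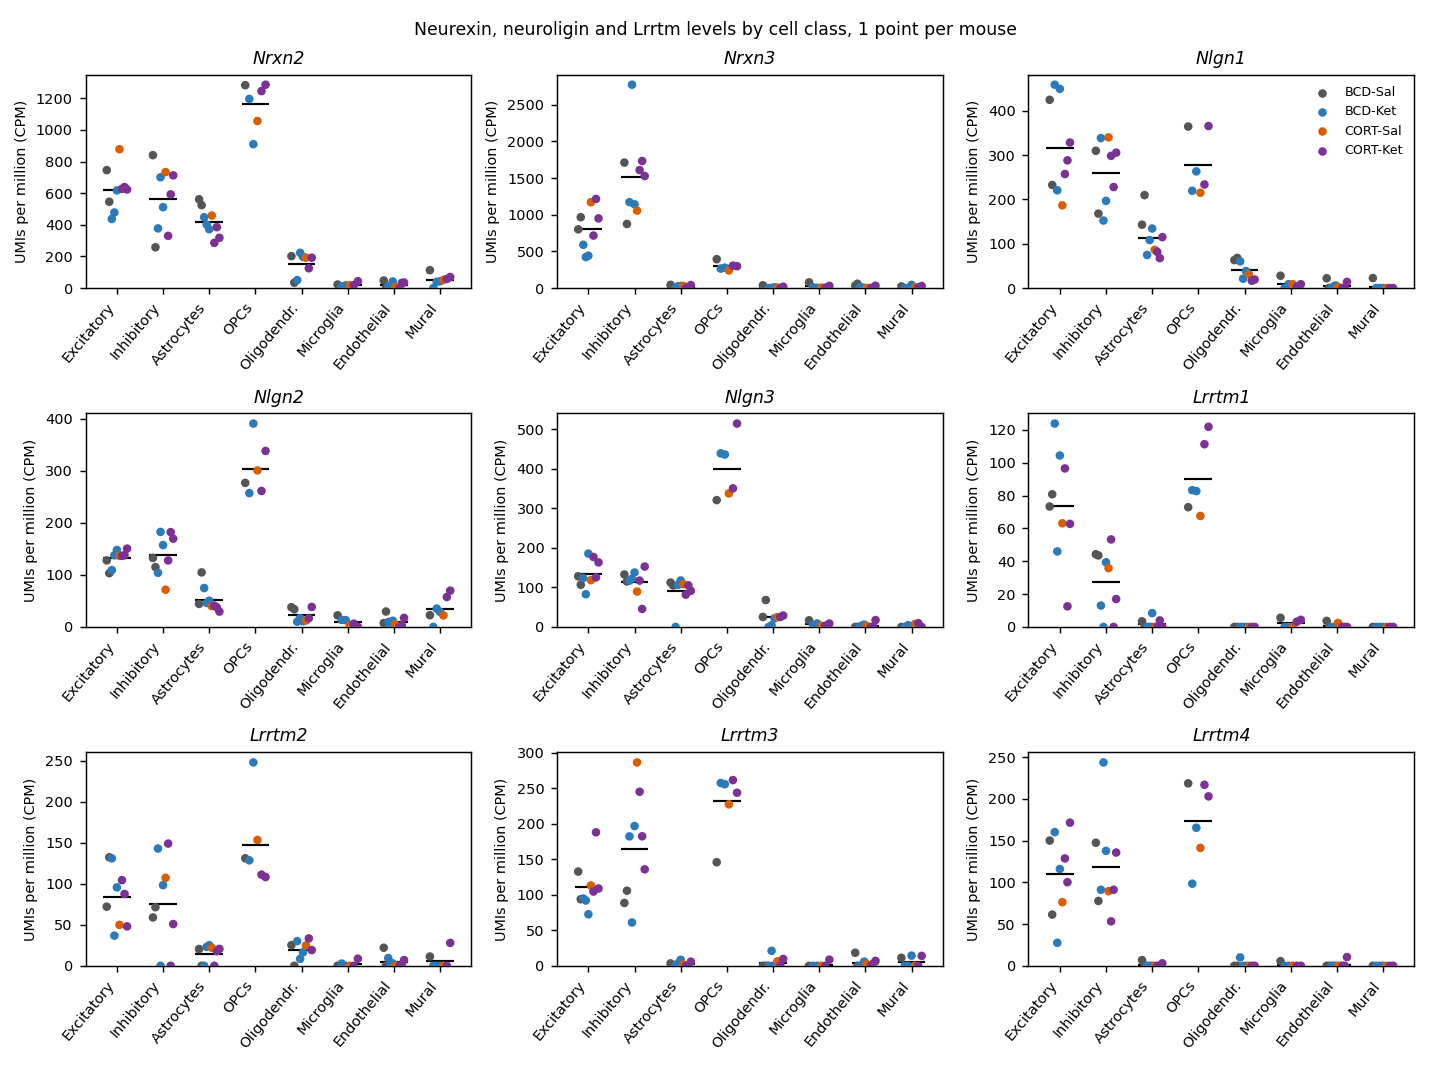
CPM of each of the 9 genes (vertical axis, linear, from 0) in 8 cell classes (horizontal axis), 1 point per mouse coloured by treatment, with a line at the mean. Of the mean levels, 7 of 9 genes have their highest in OPCs, Nrxn3 has its highest in inhibitory neurons and Nlgn1 in excitatory neurons. The share of all genes highest in OPCs was not counted, and means of OPCs cover 6 mice but those of neurons 9. For Lrrtm1, Lrrtm3 and Lrrtm4, OPCs were not told apart from the next class (exact paired tests, p = 0.188, 0.0625 and 0.406).

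Nrxn2 was highest in OPCs. It was at 1163 CPM ± 150 (SD, n = 6 mice) there, with mice from 910 to 1286 CPM, against 621 ± 133 (n = 9) in excitatory neurons, where mice ran from 437 to 878. No OPC sum lay below the highest excitatory sum, and the share of all genes with such a gap was not counted. Inhibitory neurons (562 ± 204, n = 9) and astrocytes (417 ± 90.4, n = 9) followed, then oligodendrocytes at 152 ± 73.5 (n = 8). Excitatory and inhibitory neurons were not told apart (exact paired permutation test, two-sided, p = 0.266), nor inhibitory neurons and astrocytes (p = 0.125). Mural cells, microglia and endothelial cells were at 53.5 ± 34.1 (n = 7), 21.7 ± 11.2 (n = 6) and 18.5 ± 18.8 (n = 10).

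Nrxn3 had another order. In inhibitory neurons it was at 1511 CPM ± 565 (n = 9), with the lowest mouse at 874, the median at 1528 and mouse 9949, with 12 cells, at 2773. Excitatory neurons were at 808 ± 292 (n = 9) and OPCs at 297 ± 53.1 (n = 6), and every other class had a mean between 9.28 and 22.6 CPM. The neuronal classes overlapped, but the difference passed the exact paired test (p = 0.0156), and OPCs lay below excitatory neurons in all 6 mice with both (p = 0.0313, the smallest p that 6 mice allow).

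Among the neuroligins, Nlgn1 was at 316 CPM ± 104 in excitatory neurons (n = 9), 277 ± 70.3 in OPCs (n = 6) and 260 ± 73.9 in inhibitory neurons (n = 9), and these 3 were not told apart (exact paired tests of neighbours, p = 0.344 and p = 0.438). Astrocytes were lower at 113 ± 44.7 (n = 9; exact p = 0.00781 against inhibitory neurons). Nlgn2 and Nlgn3 peaked in OPCs instead. The 6 OPC sums of Nlgn2 were 277 CPM in mouse 9901, 257 in 9949, 391 in 9986, 301 in 9969, 261 in 9968 and 338 in 9971, a mean of 304 ± 51.9. Excitatory neurons of 9 mice ran only from 103 to 151 CPM, so no value of the 2 classes overlapped. Inhibitory neurons were at 138 ± 38.0 and astrocytes at 52.0 ± 23.4 (both n = 9). Nlgn3 in OPCs ran from 321 to 515 CPM (399.8 ± 75.6, n = 6), above every neuronal sum, the highest of which was 186 CPM. For Nlgn2 and Nlgn3 alike, the share of all genes that separate these classes in this way was not counted. Nlgn3 was at 134 ± 33.9 in excitatory neurons, 114 ± 31.2 in inhibitory neurons and 92.0 ± 36.1 in astrocytes (n = 9 each). These neighbours were not told apart (exact paired tests, p = 0.215 and p = 0.344). The astrocyte sums of mice 9947, 9946 and 9967 were shallow (9536, 13386 and 24492 UMIs), so their astrocyte levels of all 9 genes rest on few UMIs. Nlgn3 in astrocytes was at 0 in 9946 and between 81.7 and 118 CPM in the other mice.

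The Lrrtm genes were nearly confined to neurons and OPCs, apart from Lrrtm2. In OPCs Lrrtm1 was at 89.9 CPM ± 21.7, Lrrtm2 at 147 ± 52.2, Lrrtm3 at 232 ± 44.0 and Lrrtm4 at 174 ± 48.1 (n = 6). In excitatory neurons they were at 73.7 ± 33.1, 84.3 ± 35.3, 111 ± 33.3 and 110 ± 48.3 (n = 9), in the same order of names. Inhibitory neurons were at 165 ± 74.0 for Lrrtm3 and 119 ± 56.4 for Lrrtm4, while Lrrtm1 was lower there than in excitatory neurons, at 27.4 ± 20.1 with 2 mice at 0 (n = 9; exact p = 0.00391, the smallest p that 9 mice allow). Lrrtm2 was at 75.5 ± 54.6 in inhibitory neurons (n = 9), 19.7 ± 11.2 in oligodendrocytes (n = 8) and 14.4 ± 10.9 in astrocytes (n = 9). Lrrtm1, Lrrtm3 and Lrrtm4 had means of at most 5.66 CPM in all 5 other classes. Lrrtm1 had 0 of 1012946 UMIs in oligodendrocytes, which allows up to 2.96 CPM, and Lrrtm1 and Lrrtm4 had 0 of 704321 in mural cells, which allows up to 4.26 CPM. These limits, and the Poisson intervals of single mice, cover counting error only.

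OPCs and excitatory neurons of the same 6 mice were then compared in 1 fit over all genes, with the mouse as a term (edgeR quasi-likelihood test, Benjamini-Hochberg adjustment over all 3544 genes tested). Of the 9 genes, 6 were higher in OPCs and 1 was lower. The background was high, with 60.7% of all genes called and 29.9% called higher. Nlgn3 rose by 1.62 on the log2 scale (SE 0.18, adjusted p = 1.41e-09), Lrrtm2 by 1.29 (SE 0.24, adjusted p = 1.83e-05), Nlgn2 by 1.21 (SE 0.18, adjusted p = 4.21e-07) and Lrrtm3 by 1.11 (SE 0.21, adjusted p = 2.91e-05). Nrxn2 rose by 0.88 (SE 0.17, adjusted p = 3.71e-05) and Lrrtm4 by 0.77 (SE 0.22, adjusted p = 0.00247). Nrxn3 fell by 1.34 (SE 0.20, adjusted p = 4.90e-07). The log2 difference was -0.09 (SE 0.18, adjusted p = 0.682) for Nlgn1 and 0.51 (SE 0.29, adjusted p = 0.124) for Lrrtm1. The sums of OPCs held 0.0295 to 0.0919% excitatory neuron markers and 0.161 to 1.14% oligodendrocyte markers, against 1.65 to 2.27% of their own. The part of these in the result was not tested.

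These differences depend on what counts as a level. The mean number of UMIs per cell in a mouse had a median of 2122 in OPCs (6 mice) and 3120 in excitatory neurons (9 mice, not only those of the fit). When sums were scaled by the number of cells in place of the total UMIs, a choice made after seeing the data, the median of all genes moved to -0.89 on the log2 scale and 3 of the 9 genes passed. Of all 3544 genes, 69.9% were called on that scale, 403 as higher in OPCs and 2075 as lower. Nlgn3 remained higher in OPCs, by 0.73 (SE 0.29, edgeR adjusted p = 0.0181), Nrxn3 fell by 2.20 (SE 0.29) and Nlgn1 fell by 0.98 (SE 0.28, adjusted p = 0.00116). Nrxn2 was at a mean of 2.29 UMIs per OPC (6 mice) and 2.30 per excitatory neuron (9 mice). In the fit of the 6 shared mice its log2 difference was 0.00 (SE 0.29), and Lrrtm4 turned to -0.09 and Lrrtm1 to -0.34. More RNA in a cell and better capture of it cannot be told apart on this scale.

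**Figure D2:**
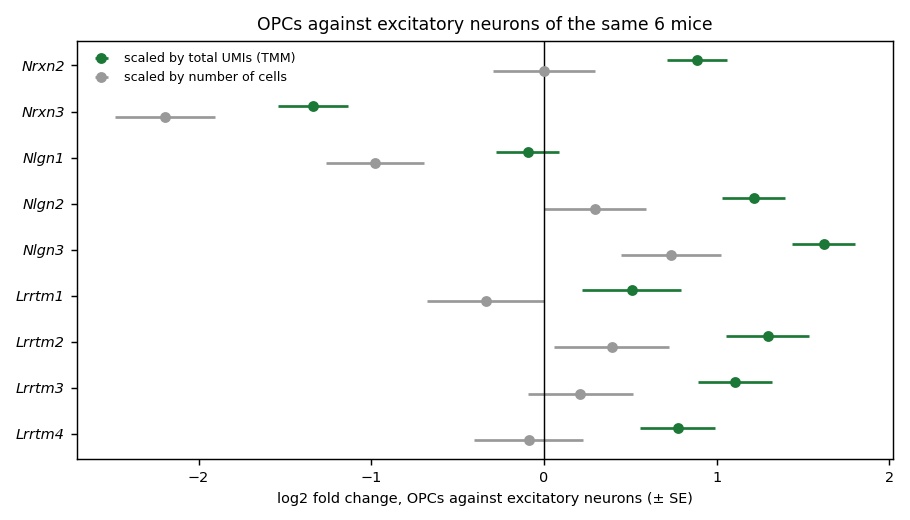
log2 fold change of OPCs against excitatory neurons of the same 6 mice (horizontal axis, points with ± SE bars) for the 9 genes, scaled by total UMIs (green) or by the number of cells (grey). Every gene lies lower on the scale per cell, and Nlgn3 is above 0 and Nrxn3 below 0 on both.

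Between the neuronal classes, 1 of the 7 genes tested passed (edgeR, 2120 genes in the fit, 20.6% called). Nrxn3 was higher in inhibitory neurons by 0.90 (SE 0.21, adjusted p = 0.00447, n = 9 mice), and by 0.39 per cell, where it did not pass (adjusted p = 0.148). Lrrtm3 was at 0.60 (SE 0.22, adjusted p = 0.0534), and the other 5 lay between -0.23 and 0.05. Per cell, the median of all genes was at -0.52 and 44.3% of all genes were called, 903 of 2120 as lower. On that scale Nrxn2 (-0.74, edgeR adjusted p = 0.00236), Nlgn1 (-0.74, adjusted p = 0.00985) and Nlgn3 (-0.64, adjusted p = 0.0328) passed as lower in inhibitory neurons. Such calls were thus common among all genes. The inhibitory class held 0.214 to 0.315% excitatory markers beside 0.219 to 1.09% of its own. It also mixed interneurons with striatal-type projection neurons, which separated at a finer clustering. In the 5 mice with at least 10 cells of both, Nrxn3 was higher in interneurons in all 5 (1666 ± 320 against 877 ± 234 CPM) and Nlgn1 was lower in all 5 (175 ± 69.9 against 361 ± 129). With 5 mice no exact paired test can pass, so these are values only. Without the striatal-type cells Nlgn1 passed as lower in inhibitory neurons, by 0.99 (edgeR adjusted p = 0.00194), and Lrrtm3 turned to -0.24.

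In astrocytes against excitatory neurons, 6 of the 7 genes tested were lower (edgeR, 5937 genes, n = 9 mice; 64.2% of all genes were called and 40.8% were called lower). Lrrtm3 fell by 4.76 (SE 0.35) on the log2 scale, with 9 UMIs in all astrocytes and 314 in excitatory neurons. It entered the fit through its excitatory counts, so its call as lower was largely set by the filter and is no separate support. Nrxn3 fell by 4.71 (SE 0.30), with 72 UMIs in astrocytes. Nlgn2 fell by 1.62 (SE 0.22), Lrrtm2 by 1.55 (SE 0.27), Nlgn1 by 1.45 (SE 0.22) and Nrxn2 by 0.65 (SE 0.23, adjusted p = 0.00996). Nrxn3 and Lrrtm2, with at most 44.2 and 25.2 CPM in an astrocyte sum, also entered the fit through their excitatory counts. Their calls as lower were thus largely set by the filter too. The median of all genes was itself at -0.27 in this fit. The call for Nrxn2 was lost without 9967, 9969, 9971 or 9986, with values from -0.45 to -0.39. Without these mice the median of all genes was at -0.079, -0.0032, -0.0090 and -0.0037, in that order. The part of this shift in the values of single genes was not tested. In the fit of all 9 mice Nlgn3 was at -0.33 (SE 0.21, adjusted p = 0.153). It passed as lower at a mitochondrial limit of 25% (-0.80, edgeR adjusted p = 1.27e-05). At that limit the median of all genes was at -0.36, and 69.6% of 5871 genes were called, 2761 as lower. Nlgn3 also passed per cell (-1.46, edgeR adjusted p = 0.00048), where the median of all genes was at -1.31 and 78.9% of all genes were called. Against astrocytes, OPCs were higher in 9 of 9 genes (4866 genes tested, 50.1% called and 25.4% called higher), from 1.13 for Nlgn1 (SE 0.18) and 1.28 for Nrxn2 (SE 0.14) to 6.50 for Lrrtm4 (SE 0.41). Lrrtm1, Lrrtm3 and Lrrtm4 had only 6, 9 and 3 UMIs in all astrocytes and entered this fit through their OPC counts. The size of their differences rests on counts near the floor. Nrxn3 and Lrrtm2, with at most 44.2 and 25.2 CPM in an astrocyte sum, also entered through their OPC counts. Nlgn2, with an astrocyte sum as low as 29.5 CPM, needed its OPC counts too. The calls of all these genes as higher, which the count of 9 includes, were therefore largely set by the filter. Against inhibitory neurons, where 64.1% of 1227 genes were called, OPCs were higher in Nlgn3 by 1.80 (SE 0.28), Nlgn2 by 1.17 (SE 0.28) and Nrxn2 by 0.84 (SE 0.22), and lower in Nrxn3 (log2 difference -2.33, SE 0.23), while Nlgn1, Lrrtm3 and Lrrtm4 did not pass.

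In droplet data free RNA gives low counts in cells that do not express a gene, so levels outside neurons were read beside the 18 excitatory neuron markers. The markers' median level in astrocytes was 1.99% of that in excitatory neurons, with a range of 0 to 10.4%. In astrocytes Nlgn3 stood at 77.0%, Nrxn2 at 61.4%, Nlgn2 at 31.5%, Nlgn1 at 30.6% and Lrrtm2 at 27.1% of the pooled excitatory level. Nrxn3 (3.32%), Lrrtm1 (3.06%), Lrrtm3 (3.11%) and Lrrtm4 (0.935%) stayed within the range of the markers, all but Lrrtm4 above their median. The part of free RNA in these levels was not tested. In OPCs, where the marker median was 4.57% and the highest marker was at 14.5%, all 9 genes stood above that range, from 34.3% for Nrxn3 to 287% for Nlgn3. In oligodendrocytes Nrxn2 stood at 26.0%, Lrrtm2 at 25.2% and Nlgn2 at 14.8%, the last 2 on 20 UMIs each, above the highest marker at 14.6%.

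Vascular cells and microglia held little. In endothelial cells the genes stood at 1.03 to 5.95% beside a marker median of 1.74% and a highest marker at 28.3%. In microglia they stood at 0.486 to 6.76% beside a median of 2.37% and a highest marker at 121%. Mural cells, the pericytes and smooth muscle cells of vessels, had Nlgn2 at 27.5% of the excitatory level (26 UMIs) and Nrxn2 at 8.57%, beside a marker median of 1.35% with a highest marker at 62.9%. Nlgn2 was at 33.7 CPM ± 23.4 in mural cells, with 1 of 7 mice at 0 (9946, with 11 mural cells) and the other 6 between 22.1 and 69.8 CPM.

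**Figure D3:**
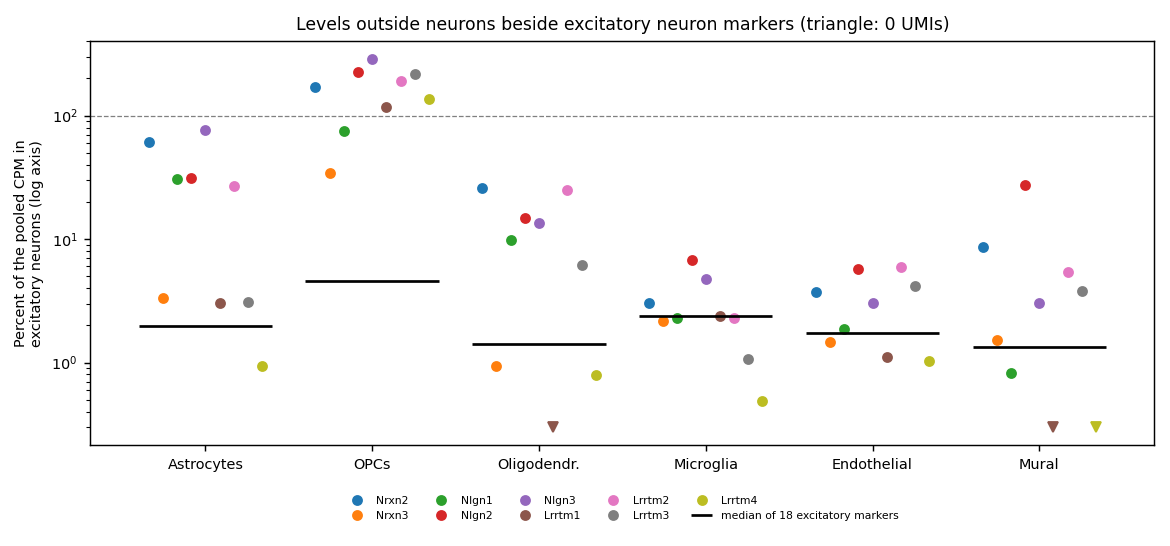
Pooled CPM of each gene in 6 non-neuronal classes as a percent of its pooled CPM in excitatory neurons (log axis), with black lines at the median of 18 excitatory neuron markers and triangles for 0 UMIs. In astrocytes Nrxn2, Nlgn1, Nlgn2, Nlgn3 and Lrrtm2 lie between 27.1 and 77.0%, while Lrrtm4 is under the line.

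Shares within a family do not depend on the total of a class. Nlgn1 made up 52.6% ± 6.85 of the neuroligin UMIs of excitatory neurons and 28.1% ± 5.31 of those of OPCs in the same 6 mice, lower in 6 of 6. Nlgn3 rose from 22.7% ± 3.34 to 40.8% ± 4.72 in OPCs and 42.0% ± 4.96 in astrocytes, higher in 6 of 6 mice in both. Nlgn2 was 24.7% ± 5.52 in excitatory neurons, 16.1% ± 2.09 in astrocytes and 31.1% ± 3.61 in OPCs. Among the Lrrtm genes, Lrrtm2 was 18.5% ± 4.46 in excitatory neurons and 75.0% ± 13.7 in astrocytes, where the family had 73 UMIs in all. Lrrtm1 was 21.5% ± 3.55 in excitatory neurons and 7.69% ± 4.99 in inhibitory neurons of the same 8 mice. With 6 mice the exact paired permutation test (two-sided) cannot go below p = 0.0313, and none of the 21 comparisons passed after adjustment (smallest adjusted p = 0.082). At an unadjusted p under 0.05 there were 8 of the 21, each at the smallest p its mice allow, which requires the same direction in every mouse. Shares within a family depend on each other, so its genes are not separate tests.

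**Figure D4:**
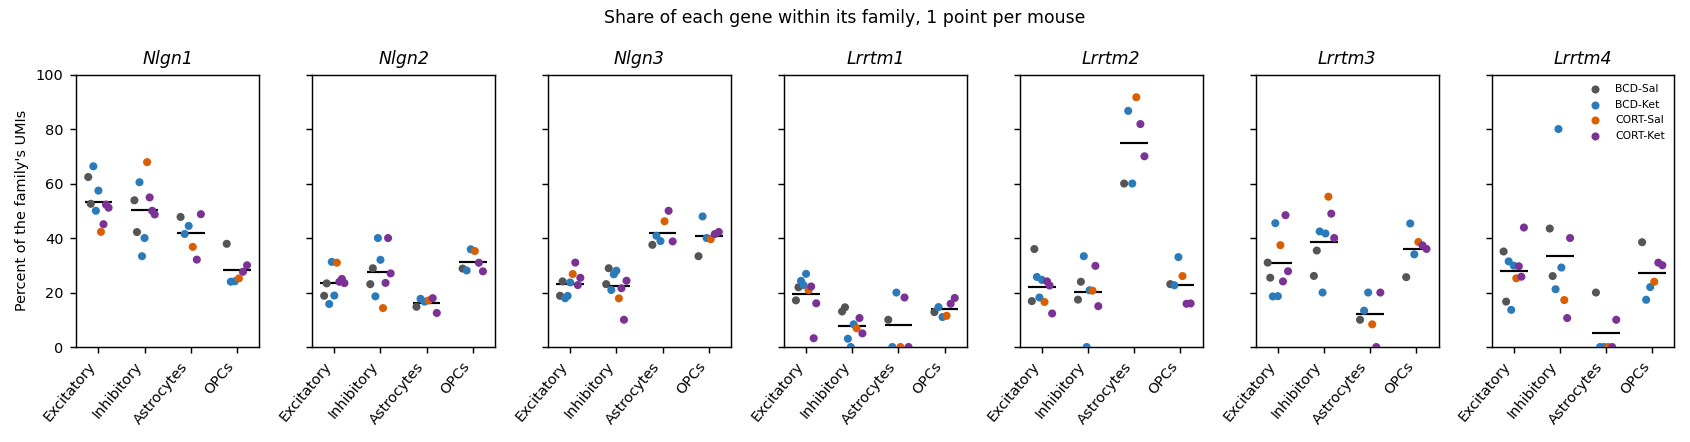
Percent of the UMIs of a family (vertical axis, 0 to 100) taken by each neuroligin or Lrrtm gene in 4 cell classes, 1 point per mouse coloured by treatment, with a line at the mean. Nlgn3 lies higher and Nlgn1 lower in OPCs than in excitatory neurons, and Lrrtm2 takes 60.0 to 91.7% of the Lrrtm UMIs of astrocytes.

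Excitatory neurons came in 2 clusters, 1 of 799 cells led by Cpne7 and 1 of 225 deeper cells led by Reln and Slc17a6, the vesicular glutamate transporter of many subcortical neurons. In the 5 mice with at least 10 cells of both, Nrxn2 was higher in the second cluster in all 5 (776 ± 221 against 559 ± 155 CPM, log2 difference 0.46 ± 0.23 SD). Nrxn3 and Nlgn3 were higher in 4 of 5, by 0.51 ± 0.46 and 0.59 ± 0.60. The other 6 genes differed by -0.10 to 0.15, within the SD of their differences. The exact paired test cannot pass with 5 mice, so these are values only. Astrocytes also came in 2 clusters, which were not tested against each other. In the cluster led by Cldn10 (n = 6 mice) and the shallower cluster led by Atp13a4 (n = 9), Nrxn2 was at 409 ± 68.6 and 408 ± 121 CPM, Nlgn1 at 110 ± 25.8 and 100.1 ± 81.0, Nlgn2 at 37.5 ± 8.69 and 70.0 ± 32.6, and Nlgn3 at 109 ± 8.09 and 84.7 ± 51.1. Pooled Nrxn3 was at 23.0 CPM (95% Poisson interval 17.0 to 30.5) and 47.0 CPM (30.1 to 69.9), and pooled Lrrtm2 at 23.0 CPM (17.0 to 30.5) and 13.7 CPM (5.51 to 28.2), the last on 7 UMIs. Lrrtm1, Lrrtm3 and Lrrtm4 had 0 to 6 UMIs in a cluster.

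The wider pathway was described by 39 partner genes, of which those with the most UMIs in each role are named. Against excitatory neurons, OPCs had 10 of 27 partners tested higher and 13 lower. Of all 3544 genes, 60.7% were called, 1061 as higher and 1090 as lower. The median of the partners was -0.46 on the log2 scale, against 0.88 for the 9 genes and 0.00 for all genes. Of the secreted ligands, Sparcl1, an astrocyte protein that bridges neurexins and neuroligins, was at 4261 CPM ± 1412 in astrocytes, 2257 ± 164 in mural cells and 242 ± 187 in excitatory neurons, and C1ql3 was at 294 ± 218 in excitatory neurons. Surface partners differed too. Dag1 (dystroglycan) was at 216 ± 38.3 in OPCs and 41.6 ± 13.8 in excitatory neurons (log2 difference 2.26, SE 0.24, edgeR adjusted p = 4.09e-10), while Adgrl1 (latrophilin 1) was at 213 ± 62.9 and 455 ± 84.8 and fell by 1.05 (SE 0.19).

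Mdga2, which blocks neuroligins from binding neurexins, was at 266 CPM ± 82.6 in OPCs, 283 ± 136 in inhibitory neurons and 178 ± 60.6 in excitatory neurons, and it passed as higher in both against excitatory neurons (0.51, SE 0.19, edgeR adjusted p = 0.0185, and 0.59, SE 0.19, adjusted p = 0.0242). Mdga1 was at 42.2 ± 27.3 or below in every class. Of 12 postsynaptic scaffolds, 11 were tested and 9 were lower in OPCs, while Magi2 and Gphn did not pass. Of all 3544 genes in that fit, 1090 were called lower. Calls of partners on the scale per cell are not given. Dlg4 (PSD-95) was at 138 ± 45.0 against 372 ± 115 in excitatory neurons and fell by 1.62 (SE 0.20), and Dlgap1 was at 491 ± 57.4 against 1037 ± 191 and fell by 0.93 (SE 0.17). Cask, a scaffold that binds the neurexin tail, was at 301 ± 57.0 in OPCs against 69.2 ± 19.1 (2.06 higher, SE 0.21), while the scaffold Apba2 was at 114 ± 46.4 against 252 ± 38.3 (log2 difference -0.91, SE 0.22). Adam10, a protease that sheds neuroligins, was higher in OPCs by 1.46 (SE 0.25), and Khdrbs3, a splicing factor of neurexins, fell by 0.53 (SE 0.21, edgeR adjusted p = 0.0291). In inhibitory neurons 1 of 15 partners tested was higher and 3 were lower. There 20.6% of all 2120 genes were called, 179 as higher and 257 as lower. In astrocytes 3 of 25 partners were higher and 18 lower. There 64.2% of all 5937 genes were called, 1387 as higher and 2423 as lower.

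The treatments were compared on the sums per mouse in 15 contrasts of a class, with all groups of a class in 1 edgeR quasi-likelihood fit, and at least 1 of the 9 genes could be tested in 14 of them. None passed the adjusted threshold of 0.05 in any, under edgeR or DESeq2. In excitatory neurons all 9 were tested, for BCD-Ket against BCD-Sal and for CORT-Ket against BCD-Ket, in which 0 of 8726 genes passed (0% called; 87 and 189 genes at an unadjusted p under 0.05). The 9 log2 fold changes ran from -0.95 to 0.22 (SE 0.40 to 0.53) in the first and from -0.59 to 0.98 (SE 0.37 to 0.51) in the second. The contrasts share the BCD-Ket mice.

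Nrxn3 was the 1 gene of the 9 with an unadjusted p under 0.05 in these contrasts. In BCD-Sal its level was 801 CPM in mouse 9901 and 966 in 9947, and in BCD-Ket it was 590 in 9946, 423 in 9949 and 441 in 9986. The CORT-Sal mouse 9969 had 1170 CPM, and in CORT-Ket 9967 had 716, 9968 had 1215 and 9971 had 950. All 3 BCD-Ket values lay below those of the 6 other mice, and the share of all genes with such a gap was not counted. The fitted change was -0.95 (SE 0.41, unadjusted p = 0.0293, adjusted p = 1.00) for BCD-Ket against BCD-Sal and 0.98 (SE 0.38, unadjusted p = 0.0163, adjusted p = 1.00) for CORT-Ket against BCD-Ket, where 0.997% and 2.17% of all genes had such an unadjusted p. Clusters took uneven parts: the Reln and Slc17a6 cluster made up 8.84 to 94.6% of the excitatory neurons of these 9 mice. Within the Cpne7 cluster the 3 BCD-Ket mice had 297, 277 and 444 CPM of Nrxn3, against 701 in mouse 9901, 1032 in 9969, 1475 in 9968 and 783 in 9971. Within the other cluster mice 9946 and 9986 of BCD-Ket had 713 and 432 CPM, against 1065 in 9901, 969 in 9947, 1236 in 9969, 682 in 9967 and 1158 in 9971, so that BCD-Ket and CORT-Ket overlapped there. Inhibitory markers took 0.0105 to 0.0363% of these sums.

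**Figure D5:**
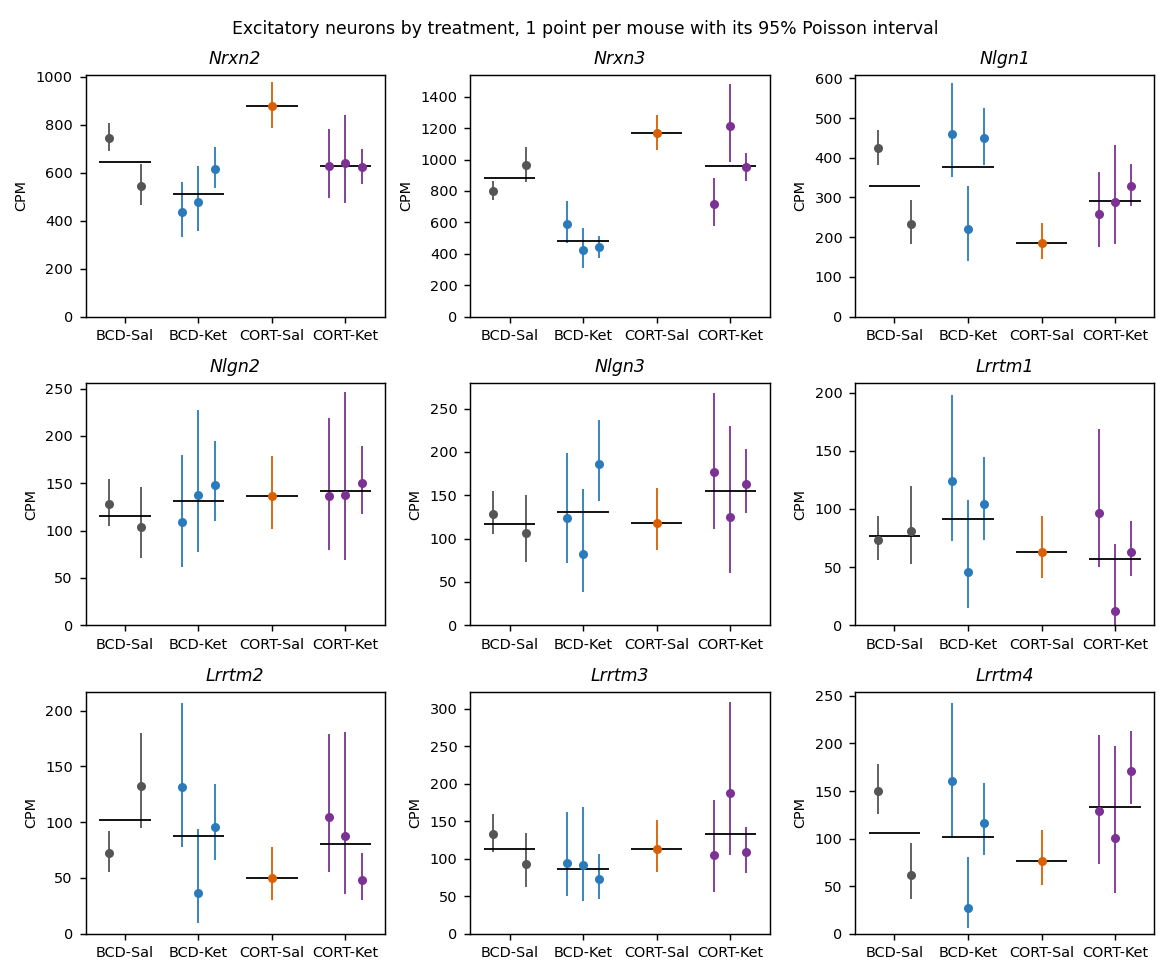
CPM in excitatory neurons (vertical axis, from 0) of the 9 genes by treatment group, 1 point per mouse with its 95% Poisson interval of counting error and a line at the group mean; CORT-Sal has 1 mouse. Nrxn3 lies at 423 to 590 CPM in BCD-Ket and at 716 CPM or above in the 6 other mice. The share of all genes with such a gap was not counted, and none of the 9 genes passed after adjustment.

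In inhibitory neurons 6 of the 9 genes were tested in the same contrasts and none passed (0% of 2753 genes called; 28 and 21 at an unadjusted p under 0.05), with log2 fold changes from -0.70 to 0.53 and SEs of 0.42 to 0.68. Nrxn3 in BCD-Ket ran from 1141 to 2773 CPM with 1171 between them, in BCD-Sal the mice had 1711 and 874, and in CORT-Ket 1609, 1732 and 1528. The CORT-Sal mouse had 1056, and BCD-Ket overlapped the other groups with more than 1 mouse. In astrocytes 5 genes were tested and none passed (0.0114% of 8743 genes called in each contrast), with values from -0.69 to 0.07.

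In OPCs 9 of 9 were tested for CORT-Ket against BCD-Ket with 2 mice each, and none passed beside 0.426% of 4934 genes called. Their log2 fold changes ran from -0.84 to 0.61 (SE 0.44 to 0.57), 5 above and 4 below 0. Nlgn3 was at 439 and 436 CPM in BCD-Ket, 350 and 515 in CORT-Ket, 321 in BCD-Sal and 338 in CORT-Sal. Lrrtm2 was at 129 and 248 CPM in BCD-Ket and at 111 and 108 in CORT-Ket, and Nrxn2 was at 1196 and 910 against 1246 and 1286. The groups did not overlap for either gene, but with 2 mice a side chance alone often gives this. The share of all genes without overlap was not counted. In oligodendrocytes Nrxn2 alone was tested and did not pass (0.0286% of 3493 genes called in each contrast), and in microglia Nrxn2 and Nrxn3 did not pass (0% of 6245). In mural cells none of the 9 had enough UMIs for the test (0% of 4126 genes called).

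Endothelial cells were the 1 class with 2 mice of CORT-Sal, and Nrxn2 was the 1 gene tested there. The saline groups had 47.8 and 0 CPM (BCD-Sal) and 4.86 and 0 CPM (CORT-Sal). The ketamine groups had 9.47, 14.1 and 41.4 CPM (BCD-Ket) and 0, 32.9 and 34.8 CPM (CORT-Ket). All groups but BCD-Ket held a mouse at 0. These were the shallowest endothelial sums: 9947 (46 cells, 33734 UMIs), 9970 (11 cells, 3411 UMIs) and 9967 (30 cells, 18197 UMIs). A 0 at such depth says little about the level, so CORT-Sal rests in effect on mouse 9969. The fitted change was -2.90 (SE 1.03, unadjusted p = 0.00503, edgeR adjusted p = 0.457) for CORT-Sal against BCD-Sal, where 0.0943% of 6365 genes were called, and 2.61 (SE 0.98, unadjusted p = 0.00753, adjusted p = 1.00) for CORT-Ket against CORT-Sal, where 0% were called. Without mouse 9901 the first turned to 3.30. That mouse also had the most excitatory marker UMIs among its endothelial cells, 0.0842% against 0.0356 to 0.0671% in the others. Nrxn2 was at -0.72 (SE 0.65) for BCD-Ket against BCD-Sal (0% called) and at 0.42 (SE 0.56) for CORT-Ket against BCD-Ket (0.0786% called). Of the 39 partners, 8 to 33 were tested in a contrast and none passed in any of the 15 under edgeR, with 15 tests at an unadjusted p under 0.05.

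The genes most like each of the 9 in pattern were sought among 11881 genes over 64 sums of a class in a mouse, by Pearson's r of log2(CPM + 20), as a description. The sums share libraries and differ in depth. Nrxn2 was most like Pcdh17 (0.95), Cadm2 and Pcdh10, which are adhesion genes. Nrxn3 was most like Plppr4 (0.97), Srrm3 and Disp2. Nlgn1 was most like Epha5 (0.95), Negr1 and Astn1, Nlgn2 like Brinp3 (0.90), Csmd1 and Cntn1, and Nlgn3 like Dner (0.91), Rap1gap and Pcdh17. Lrrtm1 was most like Brinp1 (0.93), Igsf9b and Ralyl, and Lrrtm2 like Flrt3 (0.91), Ralyl and Lrrc4c. Lrrtm3 and Lrrtm4 had the same 3 genes, Shisa7 (0.95 and 0.96), Dpp6 and Cxadr, and their own r was 0.92. Nrxn3 stood at 0.89 and 0.90 with this pair and at 0.70 with Nrxn2.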

How the data were processed

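Single-cell RNA libraries of the BLA of 10 mice were analysed. The headers of the count matrices that the authors deposited give Cell Ranger 3.0.2 as the software that counted UMIs, and the processing notes also name Seurat 3.1.1. The methods and labels name the build mm9, and the gene annotation behind the counts is not given in the sources used here. Barcodes with over 12.5% mitochondrial UMIs or under 200 genes were removed. Cells were clustered with scanpy 1.11.5 (Leiden resolution 0.8) without the 9 genes and their partners. Clusters took the name of a class with 3 or more of its markers in their top 50 genes. A cluster with over 90% of its barcodes from 1 library was left unnamed. No doublets were removed, and the highest Scrublet scores were left out as an alternative. Counts were summed per mouse and class.

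Classes were compared by exact two-sided paired permutation tests over mice on log2(CPM + 20), of which 252 were made and 174 had an unadjusted p under 0.05. The share of all genes with such a p was not counted, so the 174 are no result about the 9 genes. Fits over all genes used edgeR 4.0.16 (quasi-likelihood test, TMM factors, filterByExpr, Benjamini-Hochberg adjustment over all genes tested) in R 4.3.3, and DESeq2 1.42.0 was an alternative for the treatments. The edgeR fits between classes, with the mouse as a term, were added after seeing the data, and they compare genes that also separate the classes, although the 9 genes took no part in the clustering. The adjustment planned over the 9 genes alone is not given. All 9 genes were named by their levels, fitted treatment changes were printed for those with an unadjusted p under 0.05, and partners with the most UMIs in each role were named. The members and lists were chosen with earlier results of these data known. Mice are taken as separate animals from their numbers. The steps were tested on simulated data. Of 200 genes changed 4-fold there, the treatment fits recovered between 0.5% (astrocytes, BCD-Ket against BCD-Sal) and 57.5% (endothelial cells, CORT-Ket against BCD-Ket). In excitatory neurons they recovered 53% for BCD-Ket against BCD-Sal and 48.5% for CORT-Ket against BCD-Ket. A gene that was not called in a treatment contrast may therefore still have changed.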

Additional observations from a re-analysis of the deposited data

Results flagged for a closer look

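Of 69 groups of 6 to 10 mice, 22 held a mouse that stood apart from the rest of its class by Dixon's test, where chance gives about 1 in 20. Most rest on few UMIs, and 1 mouse without a UMI among mice that have some, or the reverse, can set such a gap. In inhibitory neurons mouse 9949, with 12 cells, had 2773 CPM of Nrxn3 (91 UMIs) and 244 CPM of Lrrtm4 (8 UMIs). In OPCs Lrrtm2 was at 248 CPM in mouse 9986 (33 UMIs), above the others, and Lrrtm3 was at 146 CPM in 9901 (10 UMIs), below them. In astrocytes Nlgn3 was at 0 in mouse 9946, Lrrtm1 at 8.39 CPM in 9986 and Lrrtm4 at 6.81 CPM in 9901.

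In oligodendrocytes Nlgn3 was at 68.0 CPM in mouse 9947, Lrrtm3 at 21.1 in 9949 and Lrrtm4 at 10.04 in 9946. In microglia mouse 9901 had 78.0 CPM of Nrxn3, 27.9 of Nlgn1 and 5.57 of Lrrtm4, and mouse 9971 had 43.2 of Nrxn2 and 8.65 each of Lrrtm2 and Lrrtm3. In endothelial cells mouse 9901 had 22.1 CPM of Lrrtm2 and 18.4 of Lrrtm3, and mouse 9971 had 17.4 of Nlgn3 and 10.4 of Lrrtm4. In mural cells Nlgn1 was at 22.6 CPM in 9901 and Lrrtm2 at 27.9 in 9971, each on 2 UMIs. Mice 9901 and 9971 also had the highest shares of excitatory neuron markers among their endothelial cells, 0.0842 and 0.0671%, and the part of free RNA in these values was not tested.

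The 9 genes were also found in barcodes that entered no comparison. In the 20364 barcodes above the mitochondrial limit the pooled levels were 287 CPM for Nrxn2, 193 for Nrxn3, 68.8 for Nlgn1, 43.5 for Nlgn2, 46.6 for Nlgn3, 16.6 for Lrrtm1, 25.6 for Lrrtm2, 23.2 for Lrrtm3 and 21.1 for Lrrtm4. In the unnamed cluster, over its 2347 barcodes from mouse 9970 (CORT-Sal), they were 697 CPM for Nrxn2, 347 for Nrxn3, 102 for Nlgn1, 127 for Nlgn2, 96.9 for Nlgn3, 43.7 for Lrrtm1, 40.4 for Lrrtm2, 53.5 for Lrrtm3 and 26.5 for Lrrtm4.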

How the results depend on the processing

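No paired analysis was possible because the treatment groups hold different mice, and the mouse numbers are shared only with the prefrontal samples, not analysed here. No gene of the 9 was called in any treatment contrast under any of 330 alternatives, all with the same few mice, which does not show that the genes were unchanged. Each library was left out in turn. Of the 9 genes, 7 to 8 were then called in OPCs against excitatory neurons, beside 56.8 to 58.2% of all genes. In inhibitory against excitatory neurons 1 to 2 were called (2 without 9901, 9947, 9949 or 9968), beside 16.4 to 21.8%. In astrocytes against excitatory neurons 5 to 7 were called, beside 57.2 to 65.7%, and in OPCs against inhibitory neurons 4 to 5, beside 59.4 to 62.4%. The 174 exact tests with an unadjusted p under 0.05 became 83 to 174, with 83 to 87 when a mouse with OPCs was left out, since classes with 6 mice then had no test. For these tests the share of all genes was not counted. Between the clusters of excitatory neurons 1 gene lay higher in the same cluster in every mouse, and 1 to 3 without a mouse (2 without 9946 and 3 without 9986).

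With UMIs per cell as the scale, chosen after seeing the data, 3 genes were called in OPCs and 3 in inhibitory neurons (Nrxn2, Nlgn1 and Nlgn3, all lower) against excitatory neurons, and Nlgn3 was called lower in astrocytes (-1.46). On that scale 69.9%, 44.3% and 78.9% of all genes were called in OPCs, inhibitory neurons and astrocytes. There Lrrtm1 and Lrrtm4 turned to -0.34 and -0.088 in OPCs, Lrrtm4 and Nlgn2 to -0.44 and -0.45 in inhibitory neurons, and Nlgn1 to -0.069 in OPCs against inhibitory neurons. Without striatal-type cells, also chosen later, 2 genes were called in inhibitory neurons, where 16.7% of 2882 genes were called. Lrrtm4, Lrrtm3 and Nlgn2 turned to -0.28, -0.24 and -0.10. The count was also 2 with at least 500 genes, at least 30 cells, a mitochondrial limit of 25%, all genes kept in the clustering, or the unnamed cluster with 2 excitatory markers counted as excitatory. In that order, 22%, 9.3%, 31.9%, 21.2% and 21.1% of all genes were called in inhibitory against excitatory neurons. Lrrtm4 there was -0.067 with at least 30 cells, and ran from -0.14 (without 9949) to 0.19 (without 9967), with -0.013 without 9947.

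At a mitochondrial limit of 5%, 2 genes were called in astrocytes against excitatory neurons, where 63.3% of 1367 genes were called. In OPCs against astrocytes 3 were called, beside 59.8% of 676 genes. Both fits held fewer cells and fewer genes than the main ones. At that limit 68 of 90 exact tests had an unadjusted p under 0.05, and with at least 30 cells 65 of 108 did. Here too the share of all genes was not counted. Leiden resolution 1.2 gave 2 genes between the excitatory clusters. Nlgn1 in OPCs against excitatory neurons was 0.029 at a limit of 25% and ran from -0.19 to 0.041 (without 9986). Nlgn3 in astrocytes ran from -0.42 to 0.020 (without 9971), with 0.0051 without 9986, and was called at -0.80 at a limit of 25%. At that limit 69.6% of all genes were called in astrocytes. Nrxn2 in endothelial cells, CORT-Sal against BCD-Sal, ran from -6.10 without 9969 to 3.30 without 9901. Where no construction is named, the cause was not tested.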
